A study of Mus musculus with 77 samples.

Results

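Among 46078 mouse genes counted in pancreatic ductal organoids, 21 were raised at least 8-fold by both WT and 6S-A Ngn3 after 2 days of transgene induction and had lost over 80% of that level by 8 days. The 21 genes were chosen by their own levels in CPM (reads of a gene, per 1000000 reads of all genes): the mean of 3 replicates had to reach 5 CPM with each protein at 2 days and 8 times the mean of GFP-only cells (taken as 0.1 CPM where lower), and each 8-day mean had to lie under 0.2 times the mean of both 2-day Ngn3 groups. The 2-day rise and the fall by 8 days are therefore given as descriptions, with no test. Of 217 genes that met the 2-day limits, 196 did not meet the 8-day limit, among them 40 that fell under it with WT Ngn3 only and 7 with 6S-A Ngn3 only. The 21 are Tff3, Gal, Miat, Neurog3, Lzts1, Btbd17, Gsg1l, Nrep, Dkk3, Madcam1, Tspear, Adgra1, Gm42447, Coro2b, Neurod2, C2cd4b, Foxo6, Klk6, Nkd1, Ubd and Gm42448, in order of their 2-day level.

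The organoids were three-dimensional cultures of duct cells from adult C57BL/6 mice, infected with a two-vector lentiviral Tet-on system that carried GFP alone, GFP with HA-tagged WT Ngn3, or GFP with 6S-A Ngn3, a phosphomutant in which serines followed by proline are alanines. Pools of 50 GFP+ cells were sorted at 2 days (GFP only, WT Ngn3 and 6S-A Ngn3, 18 libraries each) and at 8 days (5 libraries of WT and 6 of 6S-A Ngn3), with no-color cells of the WT and the 6S-A cultures at 8 days (6 libraries each), and each of the 7 groups has 3 biological replicates. All libraries came from passage 2 except replicate 3 of the 8-day groups, from passage 5. There was no GFP-only group at 8 days, so cells of that day are compared with no-color cells, as the labels call them, of the Ngn3 cultures. The labels do not say whether replicates came from different mice, so p-values measure the spread between these cultures.

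Ngn3 (gene Neurog3) is a basic helix-loop-helix factor that pairs with E proteins and binds E-boxes, the letters CANNTG. In the embryonic pancreas it is expressed for a short time in endocrine progenitors, where it turns on further transcription factors, such as Neurod1 and Insm1, and is then lost as hormone-producing cells mature. Here the vector carries the murine coding sequence, so reads of Neurog3 can come from the transgene as well as from the gene itself, and these were not separated. In pools of cells, fewer cells that express a gene and less RNA per cell cannot be told apart.

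Promoters are shown for both proneural factors among the 21 genes, for C2cd4b, with as many E-boxes as Neurod2, and for Gal, the gene that differed most between the proteins at 2 days. Each line gives the 250 bases before the start of the gene, 5′ to 3′ along its own strand, from RefSeq on GRCm38.p6, with E-boxes (CANNTG, which reads the same on both strands) in capitals.
Neurog3: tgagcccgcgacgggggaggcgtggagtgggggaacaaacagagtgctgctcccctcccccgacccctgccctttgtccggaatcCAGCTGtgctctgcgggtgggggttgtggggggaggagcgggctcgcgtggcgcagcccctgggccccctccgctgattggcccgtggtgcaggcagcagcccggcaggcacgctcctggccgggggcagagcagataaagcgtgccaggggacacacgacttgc
Neurod2: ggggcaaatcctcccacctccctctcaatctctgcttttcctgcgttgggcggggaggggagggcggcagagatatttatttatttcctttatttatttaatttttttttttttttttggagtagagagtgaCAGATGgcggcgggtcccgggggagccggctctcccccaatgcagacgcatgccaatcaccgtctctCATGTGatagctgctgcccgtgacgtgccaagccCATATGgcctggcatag
C2cd4b: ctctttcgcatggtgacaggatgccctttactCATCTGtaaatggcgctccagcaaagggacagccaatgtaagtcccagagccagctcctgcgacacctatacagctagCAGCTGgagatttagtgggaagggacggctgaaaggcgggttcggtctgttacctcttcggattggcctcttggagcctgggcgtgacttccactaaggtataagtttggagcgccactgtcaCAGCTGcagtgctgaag
Gal: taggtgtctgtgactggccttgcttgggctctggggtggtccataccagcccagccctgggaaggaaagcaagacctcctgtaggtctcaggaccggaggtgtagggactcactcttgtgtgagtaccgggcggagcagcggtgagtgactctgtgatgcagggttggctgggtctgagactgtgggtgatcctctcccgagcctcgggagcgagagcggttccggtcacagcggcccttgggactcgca
The windows lie at chr10:62132840-62133089 (Neurog3, plus strand), chr11:98329646-98329895 (Neurod2, minus strand), chr9:67759187-67759436 (C2cd4b, plus strand) and chr19:3414545-3414794 (Gal, minus strand). The E-box of Neurog3 is CAGCTG and starts 165 bases before the gene. In Neurod2, E-boxes start 118, 51 and 17 bases before the gene, the first of them CAGATG. In C2cd4b they start 218, 140 and 17 bases before it, the first as CATCTG. Gal has no CANNTG in this window.

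RefSeq windows were found for 12 of the 21 genes, with 2 starts for Klk6. At least 1 CANNTG lay in 8 of these 13 windows, against 66.2% of 32841 windows of the same length over all genes. The motif CAGATG (on the other strand it reads CATCTG), which also matches CANNTG, lay in 4 of 13 (Madcam1, Neurod2, C2cd4b and 1 start of Klk6) against 14.4% of all windows. The palindrome CAGCTG lay in 4 of 13 (Neurog3, Coro2b, C2cd4b and Nkd1) against 13.0%. The windows of Gal, Miat, Btbd17, Adgra1 and Ubd held no CANNTG. The Nkd1 window (chr8:88527383-88527632, plus strand) lies inside the gene, whose annotated start is at 88521354. The bases after this window were found in no transcript of Nkd1, unlike those of the other windows. All the counts above are matches of letters in a short window, and distal sites were not searched.

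The replicate sums held 17757303 to 26627347 gene reads at 2 days and 2397470 to 17919627 at 8 days, so that 3 reads, taken as the limit that a count of 0 allows, correspond to 0.113 to 0.169 CPM at 2 days and 0.167 to 1.25 CPM at 8 days. These limits cover counting error only, as the libraries carry no molecular identifiers. Among 149 pairs of technical repeats, 6 pairs of the 2-day cultures (repeats 2 and 3 of replicates 2 and 3 in each group) differed by a chi-square per gene of only 1.61 to 2.44, against 5.41 or more for the others. Each of these 6 pairs may be 1 pool sequenced again, and repeats were summed within a replicate. The duct marker Krt7 averaged 975 to 1379 CPM and Epcam 774 to 1799 CPM over the 7 groups, while of 15 acinar markers 6 to 11 were at 0 in a group, among them Ptf1a and Cpa1 in all, and Cela1 was at 0.606 to 9.67 CPM. The acinar sum was 1.22 to 4.97 CPM over the 2-day replicates, 0.293 to 9.32 CPM with Ngn3 at 8 days and 5.70 to 13.3 CPM in no-color cells. The summed level of 18 duct markers was lower with Ngn3 at 2 days (14425 to 17435 CPM over 6 replicates) than with GFP only (23603 to 25087 CPM), as was that of 29 cell cycle genes (524 to 976 CPM against 1260 to 1665 CPM). Of 10 mesenchymal markers the sum was higher with Ngn3 (53.6 to 115 CPM against 10.2 to 18.2 CPM), mostly as Vim, with Pdgfra under 0.15 CPM in every replicate. The part of these marker differences in the levels described here was not tested.

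**Figure D1:**
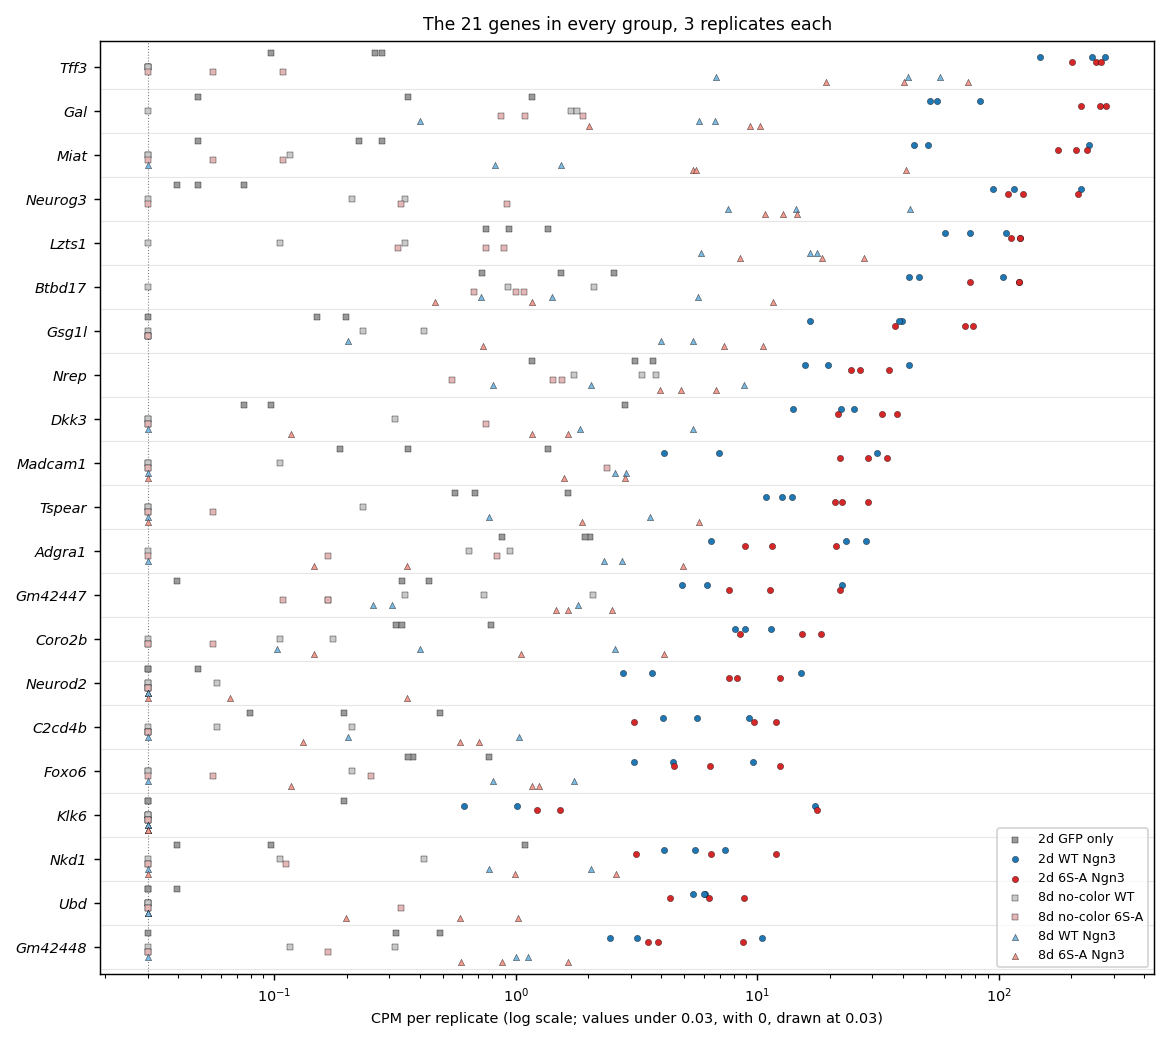
CPM of each of the 21 genes in each replicate on a log axis, by group: 2-day GFP only, WT Ngn3 and 6S-A Ngn3, and 8-day no-color and Ngn3 cells. Every 2-day Ngn3 point (filled circles) lies to the right of the 8-day points of its gene, and for Tff3, Neurog3 and Lzts1 all 8-day Ngn3 points (triangles) lie to the right of the no-color squares.

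In all 21 genes the lowest of the 6 replicates with Ngn3 at 2 days was above the highest of the 6 at 8 days, which the selection largely fixes (4.57% of 19589 genes tested at both times showed this). The median level of the 21 genes was 18.3 CPM at 2 days with Ngn3 and 0.409 CPM with GFP only, and their 8-day means had medians of 8.52% of the 2-day level with WT and 11.02% with 6S-A Ngn3. Among the 196 genes that met the 2-day limits only, the same medians were 34.1% and 50.7%, and 32 were higher at 8 than at 2 days. Per kilobase of exon, the 2-day level was highest for Tff3 (470 CPM per kb), Gal (201) and Neurog3 (87.5), followed by Btbd17 (26.7) and Miat (17.0), and lowest for Nkd1 (1.41) and Coro2b (1.99). For Neurog3 this figure uses the exons of the gene, whereas the vector carries the coding sequence.

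**Figure D2:**
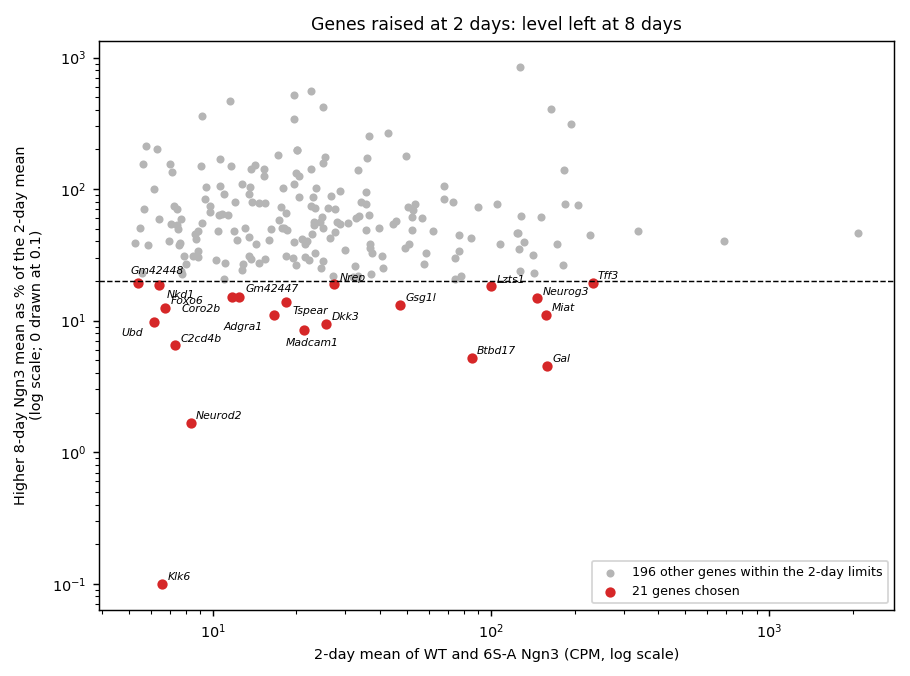
Level at 2 days (mean of WT and 6S-A Ngn3, CPM, log axis) against the higher of both 8-day means as a percentage of it (log axis) for the 217 genes within the 2-day limits. The 21 genes chosen (red) lie under the dashed line at 20%, with Klk6 (no reads at 8 days) and Neurod2 (1.68%) lowest, while Gm42448, Tff3 and Nrep lie just under it.

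The genes fell to very different degrees. The higher 8-day mean was 0% of the 2-day mean for Klk6, 1.68% for Neurod2, 4.53% for Gal, 5.21% for Btbd17 and 6.51% for C2cd4b. At the other end it was 18.2% for Lzts1, 18.6% for Nkd1, 18.9% for Nrep, 19.3% for Tff3 and 19.4% for Gm42448. Just outside the limit lay Gm42446 (20.6%), Dmpk (20.7%) and Igdcc4 (21.4%). For the level limit, the genes just inside were Gm42448, Nkd1 and Foxo6, with a lower 2-day mean of 5.36, 5.66 and 5.75 CPM, and those just outside Cbln3, Itga9 and Gng2 with 4.65, 4.05 and 3.97 CPM. For the fold limit, Adgra1, Nrep and Foxo6 lay just inside with 8.60, 9.75 and 11.4 times the GFP-only level, and Gfra4, Olfm1 and Gpr153 just outside with 7.36, 6.51 and 6.11 times.

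The set depends on single replicates and pools. With each Ngn3 pool of both days left out in turn, Gal, Miat, Neurog3, Btbd17, Gsg1l, Dkk3, Madcam1, Gm42447, Neurod2, C2cd4b, Foxo6 and Ubd stayed within the limits every time. Nkd1 left them in 8 cases, Nrep in 5, Gm42448 in 4, Tff3 and Lzts1 in 3 each, Adgra1 and Klk6 in 2 each, and Tspear and Coro2b in 1 each. Without replicate 1, 2 or 3 of every group the same limits gave 55, 35 and 12 genes, holding 18, 18 and 10 of the 21. Gal, Miat, Btbd17, Gsg1l, Dkk3, Tspear and Ubd stayed within the limits in all 3 cases. Without replicate 3 the genes Tff3, Lzts1, Nrep, Gm42447, Coro2b, Neurod2, C2cd4b, Foxo6, Klk6, Nkd1 and Gm42448 no longer met them, without replicate 1 Tff3, Neurog3 and Adgra1 did not, and without replicate 2 Madcam1, Adgra1 and Nkd1 did not. An 8-day limit of 0.1 or 0.4 times gave 8 and 80 genes.

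Neurog3 itself is 1 of the 21. Its level was 0.0751, 0.0398 and 0.0485 CPM in the GFP-only replicates, 219, 95.2 and 115 CPM with WT Ngn3 and 213, 127 and 110 CPM with 6S-A Ngn3 at 2 days, so that replicate 1 was highest with both proteins. At 8 days it was 7.58, 43.0 and 14.5 CPM with WT and 10.8, 12.9 and 14.6 CPM with 6S-A Ngn3. The no-color replicates held 0 to 0.349 CPM (WT cultures) and 0 to 0.923 CPM (6S-A cultures), below every Ngn3 replicate. Neurog3 reads were found in all 11 Ngn3 pools of 8 days, at 5.63 to 47.4 CPM, so the sorted GFP+ cells still carried the message at a mean of 14.8% (WT) and 8.70% (6S-A) of the 2-day level.

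Neurod2 and Foxo6 were the other transcription factors. Neurod2, a neuronal helix-loop-helix factor, went from a single read in GFP-only cells to 3.67, 2.78 and 15.2 CPM with WT and 8.27, 7.66 and 12.4 CPM with 6S-A Ngn3 at 2 days. At 8 days Neurod2 had 0 reads in all 3 WT replicates and 4 reads over those of 6S-A, and 9 of the 11 Ngn3 pools of 8 days held none. Foxo6, a forkhead factor, was at 3.08, 4.50 and 9.65 CPM with WT and 4.53, 6.36 and 12.4 CPM with 6S-A at 2 days, against 0.358 to 0.776 CPM with GFP only, and at 0 to 1.74 CPM in the 8-day Ngn3 replicates. Both factors had their highest 2-day value in replicate 3 with each protein.

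Secreted products included both genes with the highest 2-day level in CPM. Tff3 (chr17:31125306-31129646, minus strand, GRCm38), a trefoil peptide of mucous epithelia, went from 0.0970 to 0.279 CPM with GFP only to 244, 149 and 276 CPM with WT and 254, 202 and 266 CPM with 6S-A Ngn3. It remained at 6.76, 57.4 and 42.3 CPM (WT) and 19.3, 74.4 and 40.7 CPM (6S-A) at 8 days, when 12 no-color pools together held 2 reads. Tff3 was thus low at 8 days only relative to its 2-day level, and by mean CPM it was still the highest of the 21 genes in both 8-day groups. In replicate 1 it was not the highest with either protein, as Lzts1 was at 16.5 CPM with WT and 27.7 CPM with 6S-A.

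Gal (chr19:3409915-3414544, minus strand) encodes the neuropeptide galanin. At 2 days it stood at 1.16, 0.358 and 0.0485 CPM with GFP only, 51.8, 83.7 and 55.5 CPM with WT Ngn3 and 280, 220 and 262 CPM with 6S-A Ngn3. The Ngn3 groups did not overlap, but 83.6% of the reads of 6S-A replicate 3 came from 1 pool at 862 CPM, its other pools lying at 19.3 to 147 CPM. Without this pool, the replicate was at 57.8 CPM and the groups overlapped. The WT values rested on single pools too. Without the highest pool of each, WT replicate 1 fell from 51.8 to 23.2 CPM and WT replicate 3 from 55.5 to 17.3 CPM. At 8 days Gal was at 5.74, 6.69 and 0.403 CPM (WT) and 9.30, 2.00 and 10.3 CPM (6S-A), against 0 to 1.79 and 0.869 to 1.90 CPM in the no-color groups. Only the 6S-A replicates all lay above all no-color ones.

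Dkk3, a secreted protein of the Dickkopf family, was at 14.0 to 25.1 CPM with WT and 21.7 to 37.8 CPM with 6S-A Ngn3 at 2 days, and 1 GFP-only replicate (2.83 CPM) stood above the others (0.0751 and 0.0970 CPM). Without the highest pool of each, WT replicate 2 fell from 22.2 to 12.4 CPM and WT replicate 3 from 14.0 to 5.91 CPM. In the same way 6S-A replicate 3 fell from 37.8 to 25.1 CPM. Tspear, a secreted protein with EAR repeats, was at 12.7, 14.0 and 10.8 CPM with WT and 28.7, 21.1 and 22.5 CPM with 6S-A, again without overlap. Klk6, a secreted serine protease, rested on replicate 3: it was at 1.01, 0.611 and 17.4 CPM with WT and 1.23, 1.52 and 17.8 CPM with 6S-A Ngn3. In 6S-A replicate 3, 77.5% of the Klk6 reads came from the pool that was highest in Gal, and the replicate was at 5.35 CPM without it. Klk6 had no read in any of the 23 libraries of 8 days.

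Membrane and cytoskeletal genes formed another group. Gsg1l (chr7:125878420-126082411, minus strand), an auxiliary subunit of AMPA-type glutamate receptors, was at 39.9, 38.5 and 16.5 CPM with WT and 78.4, 72.8 and 37.2 CPM with 6S-A Ngn3 at 2 days, higher with 6S-A in each numbered pair. Adgra1, an orphan adhesion receptor, was the only gene of the 21 with a lower 2-day mean for 6S-A (13.9 ± 6.44 CPM, SD, n = 3) than for WT (19.3 ± 11.4 CPM), within the spread of the replicates. Madcam1, an adhesion molecule bound by lymphocytes that home to the gut, ranged from 4.12 to 31.3 CPM with WT and from 22.1 to 34.5 CPM with 6S-A. Without the highest pool of each, 6S-A replicates 1 and 3 fell from 28.8 to 10.6 CPM and from 34.5 to 8.61 CPM. In Madcam1 the largest no-color value (2.39 CPM in replicate 3 of the 6S-A culture) was 22 reads of 1 library, near its 8-day maximum with Ngn3 (2.87 CPM).

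Lzts1 (chr8:69132669-69184225, minus strand), a leucine zipper protein of newborn neurons, had a narrow spread with 6S-A Ngn3 at 2 days (123, 113 and 123 CPM), above all WT replicates (75.7, 59.9 and 107 CPM). At 8 days it was still at 16.5, 17.8 and 5.84 CPM (WT) and 27.7, 18.6 and 8.50 CPM (6S-A), with no-color values of 0 to 0.893 CPM. Coro2b, an actin-binding coronin, was at 8.06 to 11.4 CPM and 8.50 to 18.4 CPM at 2 days with WT and 6S-A Ngn3, and at 0.102 to 4.13 CPM in the 8-day Ngn3 replicates.

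The remaining protein-coding genes differ in function. Nkd1, an antagonist of Wnt signalling that acts on Dishevelled, was at 4.10 to 7.34 CPM (WT) and 3.15 to 11.9 CPM (6S-A) at 2 days in a medium that contains R-spondin and Noggin. Its WT replicate 3 fell from 5.53 to 2.70 CPM without the highest pool. Ubd, a ubiquitin-like modifier, was at 5.45 to 6.06 and 4.34 to 8.81 CPM, and had no reads at 8 days with WT Ngn3 but 0.198, 0.590 and 1.03 CPM with 6S-A. Nrep, a small neuronal protein, was detected in all no-color replicates (0.543 to 3.80 CPM), and its 8-day WT values (8.81, 2.06 and 0.805 CPM) overlapped the controls. C2cd4b, a C2-domain protein, was at 3.10 to 12.01 CPM in the 2-day Ngn3 replicates and at 0 to 1.03 CPM in those of 8 days.

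Miat, Gm42447 and Gm42448 are not annotated as protein coding. Miat (chr5:112213228-112229395, minus strand), a long noncoding RNA, was at 51.2, 44.4 and 236 CPM with WT and 208, 176 and 231 CPM with 6S-A Ngn3 at 2 days, so that WT replicate 3 alone reached the 6S-A level. At 8 days it was at 0.819, 1.54 and 0 CPM (WT) and 41.2, 5.43 and 5.57 CPM (6S-A). The value of 41.2 CPM came largely from 1 pool of 144 CPM, the other pools of 6S-A lying between 0.507 and 9.71 CPM. Exons of Miat overlap the opposite-strand Gm26953, which was at 0 in every replicate, and small RNA genes. Reads that match several genes have a row of their own in the files and are in no count given here.

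Gm42447 and Gm42448 are unconfirmed gene models of 2903 and 2644 bases that lie 152 bases apart on the plus strand of chromosome 5, inside the gene Pclo and on its strand, without overlap of exons. Pclo encodes Piccolo, a scaffold of the presynaptic active zone. Gm42447 was at 4.90, 6.23 and 22.4 CPM (WT) and 7.63, 11.3 and 21.98 CPM (6S-A) at 2 days, and Pclo was at 71.9, 69.0 and 214 CPM and 140, 102 and 193 CPM in the same replicates. At 8 days Pclo kept 71.9, 34.0 and 11.9 CPM (WT) and 85.6, 60.3 and 11.7 CPM (6S-A). Whether the reads of both models come from unspliced Pclo RNA was not tested. Other overlaps of exons touch Neurog3 (the opposite-strand Fam241b) and C2cd4b (an opposite-strand lincRNA), and Fam241b was at 7.25 to 25.6 CPM over the Ngn3 replicates of both days, and at 12.7 to 19.7 CPM with GFP only.

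Replicate 3 stood apart for several genes at 2 days. Foxo6, Klk6, Gm42447 and Gm42448 were over 1.5 times as high in replicate 3 as in each other replicate with both proteins, by 2.14-fold and 1.95-fold for Foxo6 and by 17.1-fold and 11.7-fold for Klk6 (3.52-fold with 6S-A without the pool highest in Gal). The labels do not say what same-numbered replicates of 2 days share, nor what sets replicate 3 apart.

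The question for the phosphomutant is whether the genes lost by 8 days were raised differently by 6S-A and WT Ngn3 at 2 days, and differed at 8 days. The limits are the same for both proteins, but they use the group means, and at 8 days 40 genes missed the limit through 6S-A alone and 7 through WT alone. The 8-day values and the change between days are therefore partly set by the selection, and nothing is read from their counts about the 21 genes as a group. At 2 days the mean of 6S-A was above that of WT in 20 of 21 genes (52.7% of 23844 genes tested), and in all 3 numbered pairs in 7 (Gal, Lzts1, Btbd17, Gsg1l, Tspear, Foxo6 and Klk6, against 16.9% of genes tested). The fitted difference was also positive in 181 of the other 196 genes within the 2-day limits. Gal, Lzts1 and Tspear had every 6S-A replicate above every WT replicate, 3 of 21 against 5.83% of genes tested. This count rested on single pools: Gal overlapped without pool 6 of 6S-A replicate 3, Lzts1 without pool 5 of that replicate or pool 4 of WT replicate 3, and Miat no longer did without pool 6 of WT replicate 3, while Tspear stayed apart without any 1 pool. The median log2 difference over the 21 genes was 0.38, beside 0.48 for those 196 genes and 0.00 for all genes. Without 6S-A replicate 1 it was 0.52, beside 0.43 for the 196, so the order of both sets rests on single replicates. For the 21 genes it ran from 0.23 without 6S-A replicate 3 to 0.74 without WT replicate 3. The sign was not stable for every gene: in 9 of the 21 it turned when 1 replicate was left out, among them Neurog3 and Tff3, and the fitted difference was positive in 18 of the 21 without pool 6 of 6S-A replicate 3 and in 15 without that whole replicate.

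None of the 21 passed an adjusted p of 0.05 in edgeR's quasi-likelihood test, in which 0.0126% of all genes did, and 4 of 21 had an unadjusted p under 0.05, as did 5.79% of all genes. DESeq2 called none of the 21, with 101 of all 23844 genes and 7 of the other 196. Gal differed most, by 1.98 on the log2 scale (SE 0.34, adjusted p = 0.205), and by 1.53 (adjusted p = 0.903 in edgeR) without its highest pool. Tspear differed by 0.93 (SE 0.29, adjusted p = 0.546), Gsg1l by 0.96 (SE 0.38, adjusted p = 0.816) and Lzts1 by 0.55 (SE 0.18, adjusted p = 0.611). With replicates blocked by their number, a pairing that rests on the data and not on the labels, Gsg1l (1.00, SE 0.13, adjusted p = 0.00508) and Lzts1 (0.59, SE 0.12, adjusted p = 0.0396) passed in edgeR, with 147 of all genes. Gal passed (adjusted p = 0.0186) only where GFP-only replicate 1 was left out. Miat, which differed by 0.89 (SE 0.61, adjusted p of 1), passed in edgeR without WT replicate 3, its high WT value (2.07, adjusted p = 0.000454), and without replicate 3 of every group (1.98, adjusted p = 0.000231). Neurog3 differed by 0.05 (SE 0.33) and Tff3 by 0.09 (SE 0.19).

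**Figure D3:**
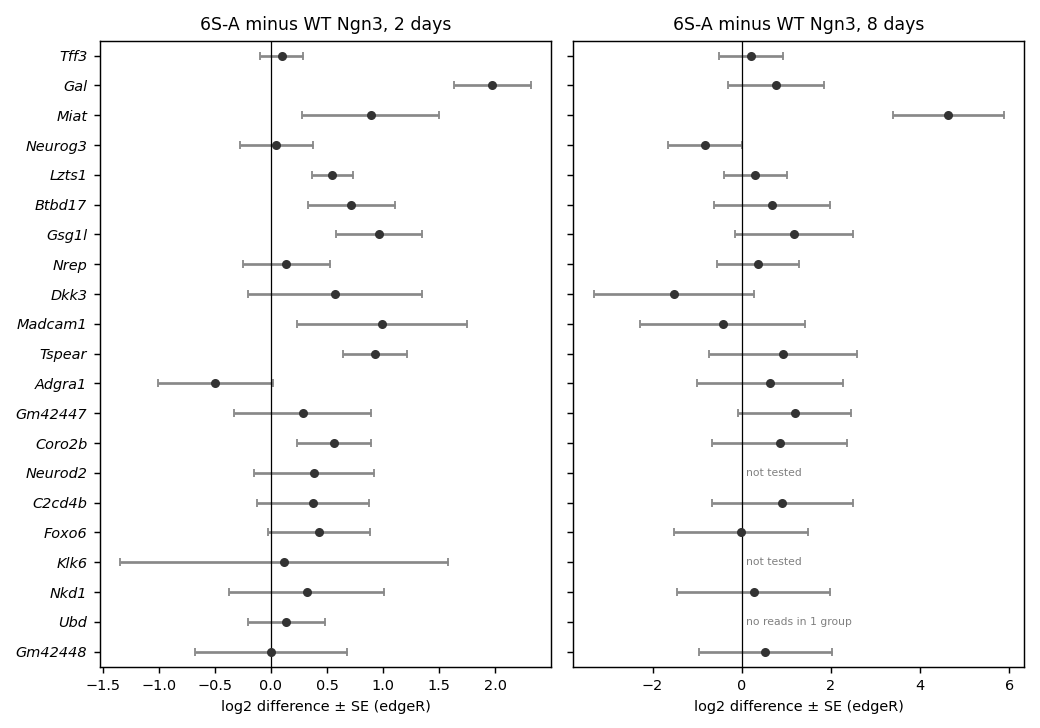
Log2 difference between 6S-A and WT Ngn3 for each of the 21 genes at 2 days (left) and 8 days (right), from edgeR; bars are standard errors and the panels have different scales. At 2 days 20 of 21 points lie right of 0, with Gal farthest at 1.98; at 8 days the standard errors are wider and Miat lies farthest right, with Ubd and 2 untested genes given no point.

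At 8 days the mean of 6S-A was above that of WT in 16 of 21 genes (48.2% of 19696 genes tested), and in all 3 pairs in 4 genes (Miat, Lzts1, Gsg1l and Ubd, against 9.96%). Miat and Ubd did not overlap, 2 of 21 against 2.47% of genes tested. For Ubd this separation is not resolved, as 0 reads in a WT replicate allow up to 0.307 to 0.772 CPM. The lowest 6S-A value of Ubd, 0.198 CPM, lies under that. Klk6 and Neurod2 had too few libraries with reads to be tested. None of the other 19 passed in edgeR, as none of all genes did (0%), and 2 of 19 had an unadjusted p under 0.05, as did 2.11% of all genes. DESeq2 called none of the 19 and none of all genes. The log2 difference was 4.63 for Miat (SE 1.25, adjusted p of 1). Ubd had no read with WT and 15 reads in all with 6S-A Ngn3 (0.198, 0.590 and 1.03 CPM), so the size of its difference is not given. Without the pool of 144 CPM the difference of Miat was 2.92 (SE 1.36). In 13 of the 19 the sign turned in at least 1 alternative, but not for Miat.

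Whether the difference between proteins changed from 2 to 8 days was tested across all 7 groups. None of 19 genes passed, nor any of 19589 genes (0%), and 2 of the 19 had an unadjusted p under 0.05, as did 2.27% of all genes. DESeq2 called 4 genes, none of them among the 19. The change was 3.80 for Miat (SE 1.13, 2.09 without the pool) and -1.18 for Gal (SE 0.95) on the log2 scale, both with an adjusted p of 1.00. With no filter on low counts Miat passed (adjusted p = 4.58e-06). The standard errors of these differences ran from 0.60 for Lzts1 to 1.76 for Madcam1, leaving out Ubd.

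A second question is whether the genes had returned to the control level at 8 days. The selection caps the 8-day level but does not use the no-color cells, and Ngn3 cells were compared with the mean of both no-color groups. No-color cells came from the Ngn3 cultures, but the main fit took the groups as independent, with the replicate block as an alternative. In the main fit 3 of 19 genes were higher with WT Ngn3 (Tff3, Neurog3 and Lzts1), where 0.741% of all genes were. With 6S-A Ngn3, 5 of 19 were higher (the same 3 genes with Miat and Gsg1l), where 1.37% of all genes were. None was lower. As genes raised by Ngn3 at 2 days, the 21 were not a random choice for this comparison: of the other 196 genes, which by the rule lie above the 8-day limit, 73 of 195 tested with WT and 110 of 195 with 6S-A were higher.

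For Tff3 the no-color cells held 2 reads, and the pooled ratio was 913 (95% counting interval 251 to 7557) for WT and 1342 (371 to 11090) for 6S-A Ngn3, with adjusted p = 1.05e-04 and 4.58e-05 in edgeR. Neurog3 was higher by 5.93 on the log2 scale with WT (SE 0.80, adjusted p = 0.00128) and 5.10 with 6S-A (SE 0.78, adjusted p = 0.00217) in the same test. Lzts1 was higher by 5.08 with WT (SE 0.66, adjusted p = 0.00108) and 5.38 with 6S-A (SE 0.67, adjusted p = 3.90e-04). These 3 genes kept 8.70% to 19.3% of their 2-day level in the 8-day groups.

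Gsg1l was higher by 6.81 with 6S-A Ngn3 (SE 1.35, adjusted p = 0.0160) and by 5.64 with WT (SE 1.33, adjusted p = 0.0676; 0.0407 in edgeR with the replicate block), on 5 control reads in all. With WT it also passed in DESeq2 (adjusted p = 0.00297), with no filter on low counts, and in edgeR without replicate 3 of every group (adjusted p = 0.0323), of WT (0.0416) or of 6S-A Ngn3 (0.0439). It did not pass with 6S-A (adjusted p of 0.0624 to 0.0661 in edgeR) without 6S-A replicate 2, without no-color WT replicate 1, or against its own no-color group only. Miat was higher by 7.78 with 6S-A (SE 1.11, adjusted p = 0.00126 in edgeR), on 4 control reads, and by 6.10 (SE 1.21, adjusted p = 0.0128) without the pool of 144 CPM. DESeq2 gave no adjusted p for Miat here. Tspear passed with 6S-A only with the replicate block (5.74, SE 1.46, adjusted p = 0.0406 in edgeR) or with no filter on low counts (adjusted p = 0.0144).

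Without any overlap of replicates, 3 of 21 genes were above both no-color groups with WT Ngn3 (the 3 called, against 5.44% of genes tested) and 8 of 21 with 6S-A Ngn3 (Tff3, Gal, Miat, Neurog3, Lzts1, Gsg1l, Nrep and Gm42448, against 4.99%). Gm42448 was at 0.594, 1.65 and 0.879 CPM with 6S-A Ngn3. The 0 reads of no-color WT replicate 3 allow up to 1.25 CPM, so its separation is not resolved. Outside the genes named for each protein, the values in control cells and in 8-day Ngn3 cells overlapped. A p above the threshold does not show that genes had returned to the control level. The summed duct markers were at 13584 to 31120 CPM in the 8-day Ngn3 replicates and at 15091 to 42881 CPM in the no-color replicates, and the cell cycle genes at 304 to 682 and 409 to 1540 CPM; their part in these differences was not tested. The median log2 difference from the no-color cells was 3.12 over 19 genes with WT and 3.54 with 6S-A Ngn3, beside 0.01 and 0.03 for all genes and 4.41 and 4.95 for the other 196, which lie above the 8-day limit by the rule, so that nothing is read from the difference.

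**Figure D4:**
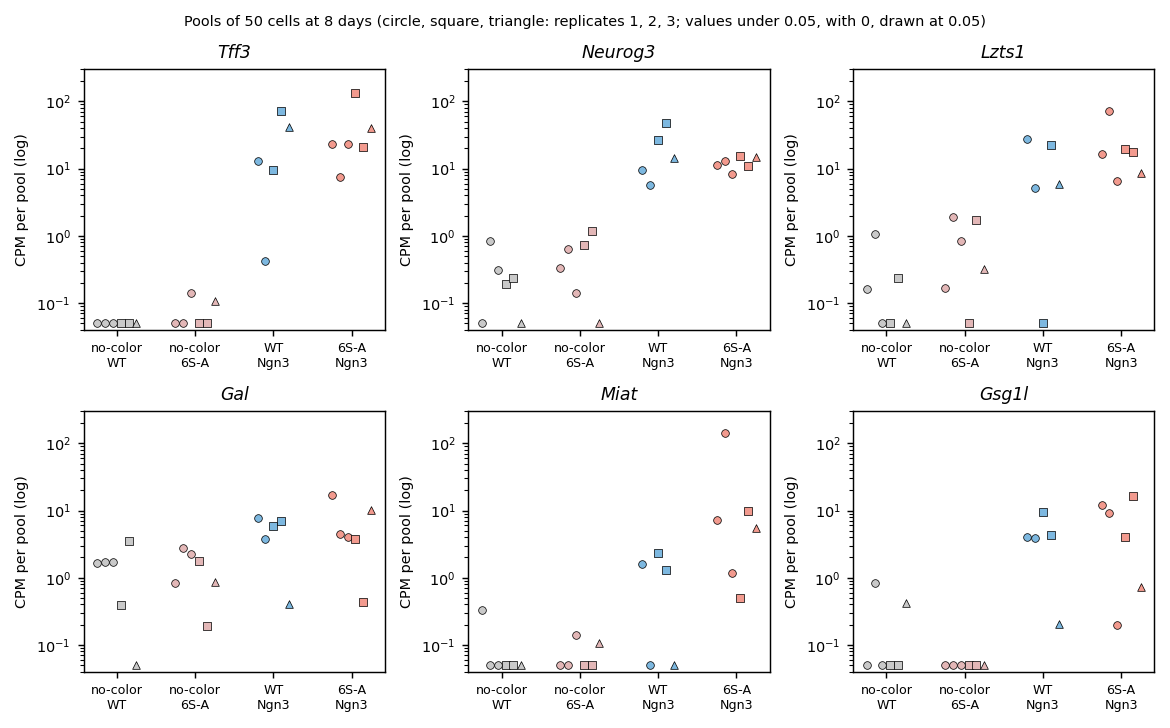
CPM in single pools of 50 cells at 8 days (log axis) for 6 genes; circles, squares and triangles are replicates 1, 2 and 3. Neurog3 is present in all 11 Ngn3 pools, whereas Tff3 and Miat range from under 0.5 CPM to 136 and 144 CPM between pools. The WT Ngn3 pool without Lzts1 is the 1 pool left out of the tests; the other 10 hold 5.21 to 71.8 CPM.

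Single pools of 8 days varied widely. Tff3 ranged from 0.417 to 136 CPM over the 11 Ngn3 pools (median 23.2), with 10 of 11 at 1 CPM or more, and Lzts1 from 5.21 to 71.8 CPM over the 10 pools used in the tests (median 17.1), with no read in the pool left out of them for its 849278 reads. Gal was at 0.403 to 16.9 CPM and reached 1 CPM in 9 of 11 pools, but also in 7 of 12 no-color pools. Dkk3 and Nkd1 had no read in 6 of the 11 pools, and Ubd in 7. Pools of 2 days varied widely too, from 0.189 to 862 CPM for Gal, 0.365 to 434 CPM for Miat and 0 to 143.5 CPM for Madcam1. Of 126 values of a gene in a 2-day Ngn3 replicate, 16 moved by over 1.5 times without the highest pool. At the higher 2-day level, which the selection fixed, 9 of the 21 genes reached 1 CPM in all 36 Ngn3 pools, and Klk6 in only 21. With the 4 close pairs of repeats among them each summed to 1 pool, Klk6 reached it in 19 of 32.

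Across the 36 libraries of 2-day Ngn3 pools the level of Neurog3 was followed to different degrees, given here as a description, since repeats of a replicate share a culture and 4 close pairs among them may each be a single pool. Spearman's rho with Neurog3 was highest for Gsg1l (0.56), Lzts1 (0.42), Dkk3 (0.32), Tspear (0.28) and Btbd17 (0.20), and lowest for Foxo6 (-0.57), Gm42447 (-0.34) and Gm42448 (-0.29). After the mean of each replicate was taken out, it was 0.52 for Gsg1l, 0.53 for Lzts1 and -0.47 for Foxo6, while Dkk3 went to 0.15, Gm42447 to -0.14 and Gm42448 to -0.19, and Nrep from -0.03 to 0.39. With each close pair summed, an alternative chosen after seeing the data, rho over 32 pools was 0.58 for Gsg1l, 0.38 for Lzts1, 0.36 for Dkk3 and -0.55 for Foxo6. Gal (0.06) and Tff3 (0.14), the highest of the 21 genes, varied with little relation to Neurog3.

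Gene lists of the programme show where these 21 genes stand in it. Of 64 proneural and endocrine transcription factors, 17 met the 2-day limits and 2 (Neurog3 and Neurod2) are among the 21. The other 15, such as Neurod1 (44.5% of its 2-day level in the higher 8-day group), Insm1 (23.0%), Nkx2-2 (21.9%) and Pax6 (360%), are not. Of 39 factors tested at 8 days, 11 were higher than in no-color cells with WT and 16 with 6S-A Ngn3, where 0.741% and 1.37% of all genes were. All 8 hormone and granule genes of 31 that met the 2-day limits were at 140% or more of the 2-day level in the higher 8-day group, Sst at 853% and Chgb at 406%. With WT Ngn3 alone, Chga was at 93.7% and Scg5 at 86.8%, and the others of the 8 were above their 2-day level. These are group means, and the replicates differed widely: the summed level of the list ran from 299.6 to 6537 CPM over the 8-day WT and from 615 to 6906 CPM over the 8-day 6S-A Ngn3 replicates, and the lowest of each lay under all 2-day Ngn3 replicates (727 to 2587 CPM). Of 20 genes of this list tested, 6 were above no-color cells at 8 days with WT and 7 with 6S-A Ngn3, beside the same shares of all genes. Both lists hold genes that Ngn3 raised at 2 days, and were chosen with that known.

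Of 68 genes of Wnt, BMP and TGF-beta signalling 6 met the 2-day limits, and the 2 that fell under the 8-day limit, Dkk3 (9.43%) and Nkd1 (18.6%), are antagonists or relatives of antagonists of Wnt, while Wnt9a was at 23.7% and Bmp2 at 21.8%. Of 44 genes of the neuronal cytoskeleton and RNA binding 8 met the 2-day limits and Lzts1 fell under the 8-day limit, whereas Dcx kept 40.1% and Tubb3 38.1%. Of all 217 genes within the 2-day limits 21 fell under the 8-day limit, so a count of 0 in lists this small is near that share. None of the Notch pathway (5 of 34 within the 2-day limits), exocytosis and synapse (9 of 50), ion channel (12 of 62), G protein (5 of 60) or axon guidance genes (7 of 72) fell under it, nor did the 1 of 16 interferon response genes within the 2-day limits (Rsad2, 26.8%).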

How the data were processed

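RNA of sorted pools of 50 cells was sequenced (Smart-seq2) in 77 libraries of 7 groups. The deposited values are raw read counts per gene: the authors aligned reads with GSNAP to mm10 and counted them with HTSeq (0.5.3p3) against Ensembl genes, with strand use not given in the sources used here. Spike-in rows (92) and the rows of unaligned, featureless and ambiguous reads (22.5%, 14.4% and 8.06% of all counts) were left out. Technical repeats were summed per replicate and CPM taken over 46078 genes and all 77 libraries.

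Tests used the 76 libraries with at least 1000000 gene reads, under 30% spike-ins and over 10000 genes, which drops 1 pool of 8-day WT Ngn3 replicate 2, and genes detected in 5 libraries. Differences were tested with edgeR (4.0.16) quasi-likelihood fits, TMM factors and Benjamini-Hochberg adjustment at 0.05, per day with all groups of that day, and over all 7 groups for the change between days. Standard errors are the fold change over the root of F. DESeq2 (1.42.0) was an alternative, and the fits were tested on simulated data.

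Same-numbered replicates deviated together from their group means. Over genes with a mean count of 10 or more the correlations were 0.103 to 0.422 at 2 days and 0.098 to 0.599 at 8 days, where number 3 also marks passage 5, and over all genes tested 0.091 to 0.375 and 0.093 to 0.556. Different numbers gave at most 0.155. Some pairs thus lie under 0.1 and the 2-day labels name no shared culture, so at 2 days the pairing is a hint from the data. At 8 days the no-color cells came from the Ngn3 cultures. Blocked fits are given as an alternative for both days. Named genes are all 21. Members and gene lists were chosen with earlier results of these data known.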

Additional observations from a re-analysis of the deposited data

Results flagged for a closer look

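Of 27 tests of single pools within an 8-day Ngn3 group (5 or 6 pools, Dixon's ratio), 10 marked a pool far above the others. Chance passes this ratio in about 1 of 20 sets of values that are independent and normally distributed. Pools of 1 replicate share a culture, and CPM of pools, many of them near 0, need not be normal. That rate therefore does not hold here, and the WT sets include the pool left out of the tests. In 6S-A Ngn3, pool 2 of replicate 1 held 144.3 CPM of Miat (next 9.706), 71.77 CPM of Lzts1 (next 19.77) and 6.273 CPM of Gm42447 (next 1.774). Pool 1 of replicate 2 held 135.6 CPM of Tff3 (next 40.72) and 19.01 CPM of Btbd17 (next 5.294). Pool 1 of replicate 1 held 12.06 CPM of Adgra1 (next 0.7603) and 11.73 CPM of Nrep (next 6.082), and pool 3 of replicate 1 held 11.71 CPM of Tspear (next 4.266). In WT Ngn3, pool 1 of replicate 1 held 14.1 CPM of Nrep (next 3.336) and pool 1 of replicate 3 held 1.812 CPM of Gm42447 (next 0.417).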

How the results depend on the processing

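The number of genes within the limits was 8 and 80 with an 8-day limit of 0.1 and 0.4 times, and 12 to 55 without 1 replicate number. It was 16 to 29 with other 2-day limits, with the tested libraries only, or with TMM-scaled CPM (18). Between 6S-A and WT Ngn3 at 2 days, 2 of the 21 genes passed with the replicate block in place of 0, 0 to 1 without 1 replicate of 1 group (Gal without GFP-only replicate 1, Miat without WT replicate 3), and 1, again Miat, without replicate 3 of every group, chosen after seeing the data. The change of that difference between days gave 1 gene with no filter on low counts, in place of 0. WT Ngn3 against GFP only gave 4291 genes with the replicate block, in place of 2810. The replicate block also called Gsg1l at 8 days with WT and Tspear with 6S-A Ngn3 against no-color cells. It turned the sign of Dkk3 (-1.52 to 0.42) and Foxo6 (-0.02 to 0.02) between proteins at 8 days, and of Btbd17 (0.11 to -0.37), Tspear (-0.09 to 0.34) and Gm42448 (0.47 to -0.05) in the change between days, none of them called. At 8 days the counts above no-color cells were 3 to 4 genes with WT and 4 to 6 with 6S-A Ngn3 in all 21 alternatives. Without 1 replicate the 2-day difference between proteins ran from -0.31 to 0.50 for Neurog3 and from -0.12 to 0.26 for Tff3 on the log2 scale, and without the 2-day 6S-A pool highest in Gal, an alternative added after seeing the data, it was -0.0036 for Neurog3. Over all alternatives the sign turned at least once for 9 of 21 genes between proteins at 2 days, 13 of 19 at 8 days and 14 of 19 in the change between days, and for 5 (WT) and 2 (6S-A) of 19 against no-color cells, among them none of the genes called there. A count of 0 allows up to 0.167 to 1.25 CPM in an 8-day replicate, so levels under that were not detectable there.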

Other observations

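The other trefoil genes did not share the level of Tff3. Tff1 was at 0 to 0.167 CPM in the 2-day replicates. Tff2 was at 18.8, 5.61 and 5.59 CPM with WT and 14.1, 5.86 and 13.5 CPM with 6S-A Ngn3 at 2 days, against 0.388 to 0.955 CPM with GFP only. In the no-color cells of 8 days, where Tff3 had 2 reads in all, Tff2 was at 7.69, 2.95 and 3.75 CPM in the WT cultures and 2.29, 0.923 and 1.20 CPM in the 6S-A cultures. Its values with Ngn3 at 8 days (0.615 to 14.0 CPM) overlapped them.

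Neurod1 and Insm1, which act after Ngn3 in endocrine progenitors, also had their highest 2-day WT value in replicate 3, as Neurod2 and Miat did. Neurod1 was at 48.4, 23.6 and 150 CPM and Insm1 at 67.7, 89.9 and 221 CPM with WT Ngn3. At 8 days Neurod1 was at 41.9, 18.02 and 0.805 CPM with WT Ngn3, where replicate 3 was lowest, and Insm1 at 14.7 to 21.1 CPM.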
